A study of Mus musculus with 20 samples.

Results

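The SLC25 family, the mitochondrial solute carriers, was examined in hearts of old and young mice. Members were all genes whose symbol in the platform annotation is Slc25a followed by a number. The array named 44 such genes, read by 93 probe sets, among 18193 genes with a probe set of their own. Of these, 31 members passed the filter on low values, a log2 value above 4 in at least 10 of the 20 arrays, as did 9275 genes in all. Where several probe sets of a gene passed, the one with the highest mean over all arrays was used. Old mice were 25 to 28 months of age (n = 10), and young mice were 4 to 6 months (n = 10). All were males of the inbred strain C57BL/6J. No genetic change or treatment is labelled in either group. Total RNA of the frozen cardiac ventricle was hybridised to Affymetrix MOE430 2.0 arrays, 1 per mouse, and the series asked whether mitochondrial gene expression declines with age.

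SLC25 carriers are small proteins of the inner mitochondrial membrane built from repeated pairs of membrane-spanning helices. They move the substrates and products of respiration across a membrane that these solutes do not otherwise cross: ADP against ATP, phosphate, acylcarnitines, amino and keto acids, nucleotides, coenzymes and iron. Heart muscle lives mainly on fatty acid oxidation and oxidative phosphorylation, so its ADP/ATP, phosphate and carnitine carriers are among its abundant mitochondrial proteins.

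The 20 arrays had medians between 3.07 and 3.20 and Spearman correlations with each other between 0.95 and 0.995. The 10 ventricular marker genes were all tested and none was called, with 9 of the estimates below 0. The largest was that of Irx4 (-0.58, limma adjusted p = 0.0845). Their summed linear signal was 253646.9 to 292372.4 in old and 271402.0 to 298120.0 in young. Most of them read near the top of the scale, where arrays respond less. Atrial markers differed between the groups: Myl7, the atrial myosin light chain, was above 10 in 7 old arrays (replicates 3, 4, 5, 6, 8, 9 and 10), at 2.36, 8.27 and 6.58 in the other 3 old arrays, and at most 2.44 in young arrays. The summed linear signal of the 13 atrial markers on the array was 2234.8 to 101251.0 in old and 1602.8 to 5954.8 in young, and 6 of the 7 tested were higher in old. Macrophage markers were higher in old for 11 of 13 tested (summed signal 5050.7 to 12111.0 in old, 3077.6 to 4699.1 in young), platelet markers for 4 of 4 (801.2 to 13594.1 in old, 296.9 to 580.6 in young), fibroblast markers for 4 of 8 (8181.7 to 15908.7 in old, 6444.6 to 10014.9 in young), endothelial markers for 2 of 7 (2228.8 to 4562.0 in old, 1885.6 to 2541.4 in young) and smooth muscle markers for 1 of 5 (830.8 to 14091.7 in old, 618.6 to 2808.3 in young). None of these markers was called lower in old. The macrophage marker Vsig4 (at most 3.16 in young) and the platelet marker Clec1b (at most 3.98 in young) passed the filter only through old arrays. Their calls are thus not independent of the filter. Of all genes tested, 11.2% were called higher. With so few markers tested, the endothelial and smooth muscle counts are not read as rises beyond that share. Red cell markers stood out in 4 old arrays, and some adipocyte markers were high in several and highest in old replicate 8. Of 10 adipocyte markers listed, 8 were on the array, 3 were tested and 1 (Car3) was higher in old. That count is too small to set against the share of all genes. Adipor2 (-0.03, limma adjusted p = 0.904) and Cidea (0.34, 0.366) were not called, and Lep was under 4 on all arrays. Red cell and adipocyte markers are described further below. The part of these other cells in the falls was not tested beyond the fits named here. The arrays also fell into 5 sets of 4, each with 2 old and 2 young arrays, when clustered on what the age groups left over. The labels do not say what the sets are. In bulk tissue, fewer cells of a type and less RNA per cell cannot be told apart.

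More carriers were lower than higher in old hearts. Of the 31 tested, 8 were lower and 2 were higher at an adjusted p under 0.05 (limma, Benjamini-Hochberg over 9275 genes). The share lower was 25.8% in the family, against 7.49% of all genes tested, and the share higher was 6.45%, against 11.2% of all genes. In either direction 18.7% of all genes were called. The estimate was below 0 for 61.3% of the members and for 48.6% of all genes, with a median log2 difference (old minus young) of -0.09 in the family and 0.01 over all genes. The median of all genes moved to -0.06 under quantile normalization and under median centring, and the share of all calls that were higher fell to 43.1% and 41.1%, against 59.9% as deposited. Over all genes, 1879 were called under quantile normalization and 1890 under median centring, against 1732 as deposited. The share of all genes called lower was thus larger under both scalings, and the share called higher smaller. The family's 8 lower and 2 higher genes were called under both scalings, and its contrast with all genes was smaller there. All 10 called members had the same sign in each of the 5 array sets, which was also so for 92.4% of all 1732 called genes. The lower members were Slc25a33, Slc25a34, Slc25a13, Slc25a38, Slc25a42, Slc25a11, Slc25a15 and Slc25a36. Their known substrates are nucleotides, coenzymes, amino acids and keto acids, except Slc25a34, which has no agreed substrate. The higher ones were Slc25a24 and Slc25a37. The major ADP/ATP, phosphate and carnitine carriers were not called.

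**Figure D1:**
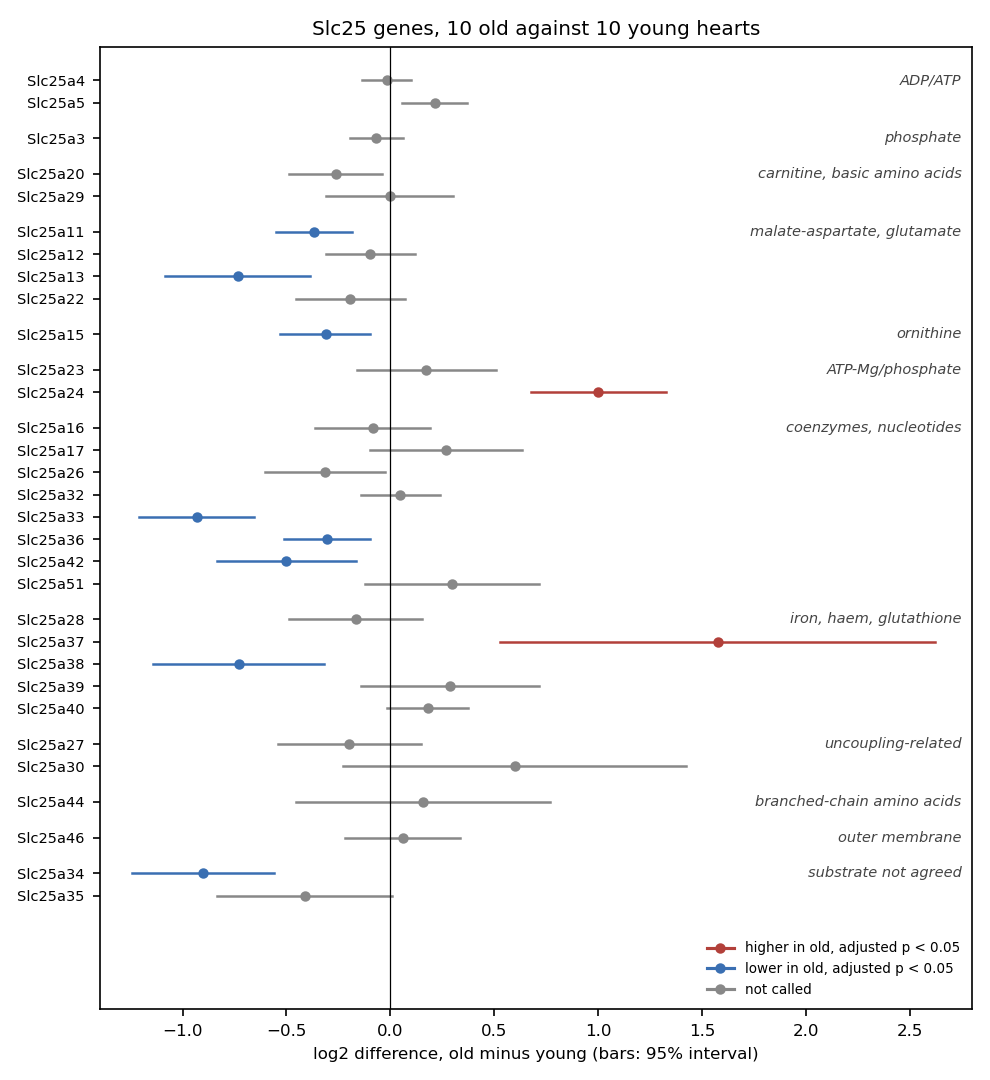
Log2 difference, old minus young, of the 31 tested Slc25 genes, grouped by substrate, with 95% intervals from limma (10 arrays per group). The 8 genes called lower lie between -0.93 and -0.31, Slc25a24 lies at 1.0 and Slc25a37 at 1.58 with the widest interval. Slc25a4 and the phosphate carrier Slc25a3 have narrow intervals that include 0. The other ADP/ATP carrier, Slc25a5, lies at 0.21 with an interval of 0.06 to 0.37 and was not called.

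Fewer members were called when the atrial signal was modelled. The index used was at most 3e-04 in young arrays and 0.1255 to 1 in the 7 old arrays with Myl7 above 10. It is thus closely tied to age, and a fit that holds it has less power to call an age difference. Slc25a13 moved from -0.73 to -0.48 with the index and Slc25a11 from -0.37 to -0.35, and both calls were lost. Whether atrial tissue accounts for lost calls was not tested. With an atrial index (Myl7 and Sln) as a covariate, 3 members stayed lower (Slc25a33, Slc25a34 and Slc25a38) and 1 higher (Slc25a24), against 0.927% and 2.81% of all genes. Without the 7 old arrays with Myl7 above 10, which leaves 3 old against 10 young, 1 was lower (Slc25a34) and 0 were higher by limma, against 0.679% and 2.25% of all genes. All 10 called members kept their direction in both fits. With both the index and the array set in the fit, 4 members were lower and 3 higher, against 1.89% and 4.36% of all genes. With the array set as a block, 10 members were lower and 4 higher, against 16.7% and 19.4% of all genes. The sets were found on the values tested, so both fits that use them can make p-values too small.

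The promoters of 3 of the 4 members with the largest falls are shown because each holds 1 of the motifs searched, with the match in capitals. Each window runs from 250 bases before to 50 after the gene's start, on the minus strand of GRCm38.p6 (RefSeq), written in the direction of the gene. Slc25a13 (chr6:6217124-6217423) and Slc25a33 (chr4:149774218-149774517) each hold the E-box CACGTG, 125 and 8 bases before the start. Slc25a34 (chr4:141623785-141624084) holds the half-site AAGGTCA of the oestrogen-related receptors on the opposite strand, 119 bases before the start, where it reads TGACCTT.
Slc25a13: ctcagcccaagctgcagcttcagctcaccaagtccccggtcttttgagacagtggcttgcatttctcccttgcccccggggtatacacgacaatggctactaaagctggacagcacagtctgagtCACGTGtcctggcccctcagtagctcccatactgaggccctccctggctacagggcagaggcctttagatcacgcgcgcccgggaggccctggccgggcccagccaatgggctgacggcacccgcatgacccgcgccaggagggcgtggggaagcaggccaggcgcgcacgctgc
Slc25a33: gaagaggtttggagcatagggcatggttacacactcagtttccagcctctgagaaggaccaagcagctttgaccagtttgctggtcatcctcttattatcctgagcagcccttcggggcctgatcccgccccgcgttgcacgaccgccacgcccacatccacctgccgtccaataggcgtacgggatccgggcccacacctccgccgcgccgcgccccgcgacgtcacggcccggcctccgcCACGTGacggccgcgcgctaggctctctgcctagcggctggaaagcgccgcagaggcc
Slc25a34: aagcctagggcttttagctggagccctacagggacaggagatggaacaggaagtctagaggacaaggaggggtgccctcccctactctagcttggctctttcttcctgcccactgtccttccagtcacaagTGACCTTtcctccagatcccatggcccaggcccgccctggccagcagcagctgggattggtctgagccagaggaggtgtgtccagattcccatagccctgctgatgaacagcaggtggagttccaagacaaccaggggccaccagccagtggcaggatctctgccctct

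The motifs were chosen with the members' values known, and both strands were searched. CACGTG was in 7.15% of all 32851 windows. Counted by gene, it was found for 7 of the 34 Slc25 genes with a window. Among them were 4 of the 8 lower genes (Slc25a13, Slc25a15, Slc25a33 and Slc25a36). A gene counts if any of its windows holds the motif, so gene counts and shares of windows are unlike measures and are not compared. AAGGTCA was in 4.72% of all windows and was found for 1 Slc25 gene, Slc25a34. Its longer form TNAAGGTCA, which contains it, was in 1.28% of windows and was found for 0 Slc25 genes. The NRF1 motif, an imperfect palindrome, was in 4.6% of windows and was found for 2 Slc25 genes (Slc25a3 and Slc25a31). TGACGTCA, the CRE, was in 1.79% of windows and was found for 2 Slc25 genes (Slc25a25 and Slc25a36). A match is a stretch of letters, not a site shown to be bound.

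The ADP/ATP carriers exchange cytosolic ADP for matrix ATP. Slc25a4, the form that dominates in heart, read 15.33 at the lowest, 15.41 at the median and 15.58 at the highest in old arrays, and 15.41, 15.44 and 15.53 in young. The groups overlapped, and the difference was -0.02 (95% interval -0.14 to 0.10, adjusted p = 0.864). These values lie near the top of the scale, where arrays respond less; a dimmer probe set of the gene, at 12.00 ± 0.24 in old and 11.96 ± 0.22 in young (SD over 10 arrays), differed by 0.04 (adjusted p = 0.874 in the limma fit of 15304 probe sets). The sign of the Slc25a4 estimate turned in 4 of the other fits, always with an estimate of 0.05 or less.

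Slc25a5, the more widely expressed ADP/ATP carrier, read 12.46, 12.74 and 12.99 (lowest, median, highest) in old arrays and 12.34, 12.54 and 12.68 in young. The old values were above all young values in 8 of 10 arrays. The difference of 0.21 ± 0.08 (SE) missed the threshold (limma adjusted p = 0.0517). It passed in 3 of 20 repeats that each dropped 1 array, without old replicate 6 (adjusted p = 0.0269), old replicate 10 (0.0463) or young replicate 17 (0.0437). It also passed with no filter (0.0264), with trend and robust variance (0.0269) and with the array set as a block (0.00827), a fit that can make p-values too small. The difference was 0.14 under median centring (0.249) and 0.11 over the mean of the passing probe sets (0.4), not called in either. Of its 8 passing probe sets, 7 had an estimate above 0. Most of the 8, among them the one used, are of the kind whose probes can also match other transcripts. The one below 0 is not of that kind (-0.08, adjusted p = 0.718 in the limma fit of each probe set on its own). The difference between the changes of Slc25a5 and Slc25a4 was 0.23 ± 0.06 (SE; two-sided permutation test over arrays, p adjusted over 6 paralog pairs = 0.00171), with 8 of 10 old arrays above all young ones. Averaged over all passing probe sets of each gene, it was 0.15 (permutation adjusted p = 0.0926). The Slc25a4 probe set used in the pair reads near the top of the scale, where arrays respond less. Slc25a31, the ADP/ATP carrier of the testis, never exceeded 4.

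Slc25a3 brings phosphate into the matrix together with protons. It read 13.99, 14.08 and 14.24 in old arrays and 14.06, 14.14 and 14.29 in young, with overlapping groups and a difference of -0.07 (95% interval -0.19 to 0.06, limma adjusted p = 0.481). These values also lie toward the top of the scale, where arrays respond less. A much dimmer probe set of the gene, at 5.27 ± 0.49 in old and 5.47 ± 0.74 in young (SD), differed by -0.20. It was not called (adjusted p = 0.667 in the limma fit of each probe set on its own). Among genes that work beside these carriers, Ppif, which encodes cyclophilin D, a regulator of the permeability transition pore, was lower in old: 9.53, 10.28 and 10.59 in old arrays and 10.62, 10.87 and 11.38 in young, a difference of -0.72 ± 0.13 (adjusted p = 0.000457). Every old array lay below every young one. The muscle mitochondrial creatine kinase Ckmt2 differed by -0.21 (adjusted p = 0.055) and the cytosolic kinase Ckm by -0.32 (0.148).

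Slc25a20 is the carnitine/acylcarnitine carrier, which passes long-chain acylcarnitines into the matrix in exchange for free carnitine. Its main probe set read 10.21, 10.50 and 11.01 in old arrays and 10.50, 10.79 and 11.10 in young. The difference was -0.26 ± 0.11 and was not called (adjusted p = 0.0919). Its other probe set is of the kind whose probes can also match other transcripts. It read 10.09, 10.39 and 10.65 in old arrays and 10.58, 10.69 and 10.89 in young. There 8 of 10 old arrays lay below all young ones. The difference of -0.36 ± 0.08 was called in the limma fit of each probe set on its own (adjusted p = 0.00593). In that fit 5.91% of probe sets were lower and 8.89% higher, and the main probe set was not called (0.107). The gene was also called without old replicate 1 (-0.32, adjusted p = 0.0336). It was called as well over the mean of both probe sets (-0.31, 0.0168), under median centring (-0.34, 0.0499) and with the array set as a block (-0.26, 0.0018). Both probe sets had estimates below 0. Without the 7 old arrays with high Myl7, the main probe set differed by -0.06 (adjusted p = 0.886).

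The partners of the carnitine carrier were 4 tested genes, of which 1 was lower and none higher, against 7.49% and 11.2% of all genes. Cpt2, the inner-membrane carnitine palmitoyltransferase that acts on what Slc25a20 delivers, read 10.17, 10.69 and 11.03 in old arrays and 11.12, 11.24 and 11.48 in young. The groups did not overlap, and the difference was -0.59 ± 0.10 (adjusted p = 0.000372). The plasma-membrane carnitine transporter Slc22a5 differed by -0.25 (0.0608), the acetyltransferase Crat by -0.38 (0.26) and the outer-membrane transferase Cpt1a by 0.14 (0.52). Slc25a29, named at first for a likeness to the carnitine carrier and now known to carry basic amino acids, had the same mean in both groups to within 0.01 (5.84 ± 0.46 in old, 5.84 ± 0.16 in young; SD, n = 10 each; 95% interval of the difference -0.31 to 0.30).

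The malate-aspartate shuttle carries reducing equivalents of cytosolic NADH into the matrix and needs an aspartate/glutamate carrier and an oxoglutarate/malate carrier. Slc25a13, citrin, an aspartate/glutamate carrier stimulated by calcium, read 8.35, 9.07 and 9.50 in old arrays and 9.06, 9.73 and 10.19 in young. It fell by 0.73 ± 0.17 on the log2 scale (adjusted p = 0.00415), to 0.601 times the young level, and 4 of 10 old arrays lay below all young ones. Its paralog Slc25a12, aralar, read 10.64, 11.18 and 11.47 in old and 10.92, 11.28 and 11.37 in young, a difference of -0.10 (95% interval -0.31 to 0.12, adjusted p = 0.564). The change of Slc25a13 differed from that of Slc25a12 by -0.64 ± 0.12 (permutation adjusted p = 0.00036), and 9 of 10 old arrays were below every young array. That difference was called under every alternative run, although Slc25a13 itself was not called with the atrial index (-0.48, adjusted p = 0.224) or without the old arrays with high Myl7 (-0.47, 0.329).

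Slc25a11, the oxoglutarate/malate carrier, read 10.88, 11.41 and 11.60 in old arrays and 11.51, 11.76 and 11.87 in young. It fell by 0.37 ± 0.09 (adjusted p = 0.00567), and 8 of 10 old arrays were below every young array. With the atrial index its difference was -0.35 and was not called (adjusted p = 0.102). The 4 enzymes of the shuttle were not called: Got1 differed by 0.04, Got2 by -0.27 (adjusted p = 0.0745), Mdh1 by -0.13 and Mdh2 by -0.17. Slc25a22, a glutamate carrier, differed by -0.19 (adjusted p = 0.311), and its paralog Slc25a18 never exceeded 4. The ornithine carrier of the urea cycle, Slc25a15, was 7.01 ± 0.23 in old and 7.32 ± 0.22 in young (SD over 10 arrays) and fell by 0.31 ± 0.10 (adjusted p = 0.0398). It did not hold in 11 of 20 repeats that each dropped 1 array (old replicates 3, 5, 8, 9 and 10, and young replicates 11, 12, 14, 15, 16 and 19), with adjusted p-values of 0.0535 to 0.0771.

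The largest fall in the family was that of Slc25a33. It carries pyrimidine nucleotides, which the matrix needs for mitochondrial DNA and RNA synthesis. It read 6.19, 6.65 and 7.17 in old arrays and 7.10, 7.64 and 7.97 in young, and 9 of 10 old arrays lay below all young ones. The difference was -0.93 ± 0.13 (adjusted p = 4.9e-05), which puts old at 0.524 times the young level. It was called whichever 1 array was dropped and with the atrial index (-0.81, adjusted p = 0.0107), and lay at -0.70 without the old arrays with high Myl7 (0.0573). Slc25a36, the other pyrimidine nucleotide carrier, read 8.96, 9.28 and 9.56 in old and 9.26, 9.64 and 9.95 in young, a difference of -0.31 ± 0.10 (0.0338).

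The Slc25a36 call was the less firm of these. It did not hold in 10 of 20 repeats that each dropped 1 array (old replicates 3, 7, 8 and 9, and young replicates 11, 15, 16, 18, 19 and 20), with adjusted p-values of 0.0521 to 0.0633, and its other 2 probe sets differed by -0.10 and -0.04. The change of Slc25a33 minus that of Slc25a36 was -0.63 ± 0.17 (permutation adjusted p = 0.00379). This difference was no longer called with the atrial index (-0.50, permutation adjusted p = 0.0594).

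Coenzymes made outside the matrix also enter through this family. Slc25a42, a carrier of coenzyme A, read 5.28, 6.52 and 7.05 in old arrays and 6.63, 6.90 and 7.28 in young. It fell by 0.50 ± 0.16 (adjusted p = 0.0337), and 6 of 10 old arrays were below every young array. The call was lost without old replicate 6 or young replicates 14, 16, 17 or 19, with adjusted p-values of 0.0531 to 0.0608. Of the other 5 coenzyme carriers tested, none was called: Slc25a16, linked to coenzyme A, differed by -0.09, Slc25a17, the peroxisomal member, by 0.27, Slc25a26, for S-adenosylmethionine, by -0.31 (adjusted p = 0.12), Slc25a32, for folate and FAD, by 0.05, and Slc25a51, for NAD, by 0.30, which was 0.14 without old replicate 9, its highest array. Slc25a26 was called without old replicate 10 (-0.39, adjusted p = 0.0296).

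Slc25a34, a member with no agreed substrate, read 7.31, 8.47 and 8.66 in old arrays and 8.85, 9.23 and 9.40 in young. Every old array lay below every young one, which held for 0.42% of all genes tested. The 2 lowest values were those of old replicates 5 and 8, and the other 8 old arrays lay between 8.29 and 8.66. It fell by 0.90 ± 0.16 (adjusted p = 0.0006), to 0.535 times the young level. It was called in all the fits of old against young given here: -0.90 with the atrial index (0.0227), -0.73 without the old arrays with high Myl7 (0.0062), and all 20 fits without 1 array. Its relative Slc25a35 differed by -0.41 ± 0.20 (adjusted p = 0.166) and was called without old replicate 8 (-0.55, 0.0267).

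**Figure D2:**
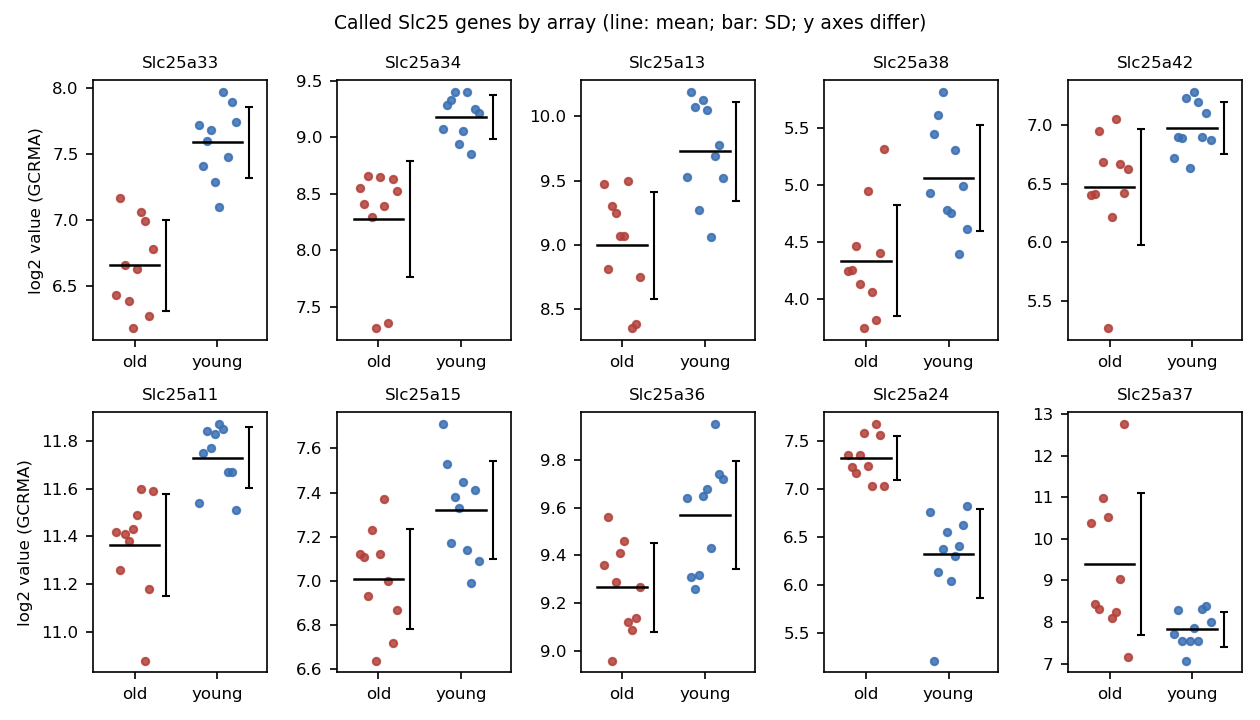
Log2 GCRMA values of the 10 called Slc25 genes, 1 point per array, old left of young; the line is the mean and the bar the SD (n = 10 each), and each panel has its own axis. Slc25a34 and Slc25a24 show no overlap between groups, Slc25a33 overlaps by 1 old array, and the old values of Slc25a37 reach from 7.15 to 12.76.

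Slc25a24 was the higher member with the smallest p. It is an ATP-Mg/phosphate carrier that sets the adenine nucleotide content of the matrix and is switched on by cytosolic calcium. It read 7.03, 7.30 and 7.68 in old arrays and 5.21, 6.40 and 6.82 in young. The groups did not overlap, with all old arrays above all young ones, which held for 1.36% of all genes tested. The difference was 1.0 ± 0.16 (adjusted p = 0.000129), or 2.00 times the young level. It was called whichever 1 array was dropped and with the atrial index (0.96, 0.0111), but not without the old arrays with high Myl7 (0.88, 0.0829). Its paralog Slc25a23 was 5.99 ± 0.39 in old and 5.81 ± 0.37 in young (SD over 10 arrays), a difference of 0.17 (adjusted p = 0.494). The changes of Slc25a24 and Slc25a23 differed by 0.83 ± 0.22 (permutation adjusted p = 0.002), and this was called under every alternative run. Slc25a25 and Slc25a41, the other carriers of this kind, were not tested, with highest values of 4.09 and 2.86 in old and 5.06 and 3.03 in young. In the fit with no filter, where 16.7% of 18193 genes were lower and 7.15% higher, Slc25a41 was among those lower although it never exceeded 4.

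**Figure D3:**
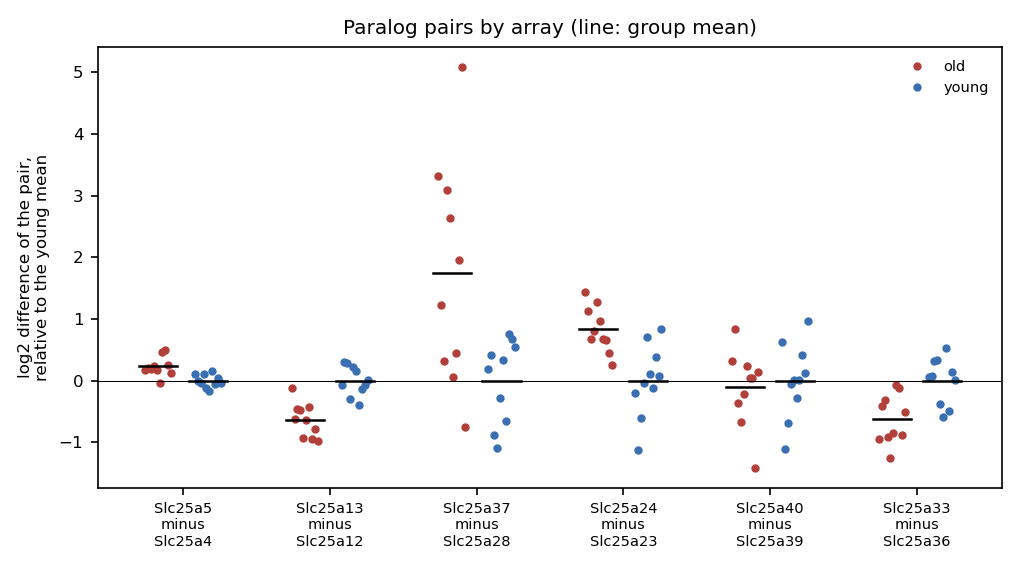
Difference of the log2 values of 6 paralog pairs in each array, set relative to the young mean; old points stand left of young ones and lines are group means (n = 10 each). The group means differ by 0.83 in Slc25a24 minus Slc25a23, with 4 of 10 old arrays above all young ones, and by -0.64 in Slc25a13 minus Slc25a12, with 9 of 10 below; in Slc25a40 minus Slc25a39 only 1 old array lies outside the young range on the low side.

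Iron, haem and glutathione depend on 5 carriers. Slc25a37 and Slc25a28, the mitoferrins, bring iron into the matrix, and Slc25a37 is the main form of red cell precursors. Slc25a37 read 7.15, 8.74 and 12.76 in old arrays and 7.07, 7.78 and 8.38 in young, a difference of 1.58 ± 0.50 (adjusted p = 0.0321). The 4 highest arrays were old replicates 1, 4, 5 and 9, at 10.38, 10.99, 10.53 and 12.76, and the other 6 old arrays lay between 7.15 and 9.04. The call was lost without old replicate 1 (adjusted p = 0.0507), old replicate 4 (0.0609), old replicate 5 (0.0616) or young replicate 14 (0.0559).

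The same 4 old arrays were high in red cell genes. Alas2, the haem synthesis enzyme of red cell precursors, read 10.82, 11.59, 11.35 and 13.23 in them, at most 9.18 in the other old arrays, and 7.44 to 8.76 in young. Slc4a1, the band 3 anion exchanger of the red cell, read 9.43, 10.71, 8.79 and 12.87 in them, at most 6.02 in the other old arrays and at most 5.96 in young. Of 11 red cell markers listed, 5 were on the array under these names, 3 were tested and 2 were higher in old. Their summed signal was 384.5 to 17330.4 in old and 256.1 to 555.1 in young, with the probe set of Hba-a1 under 4 on all arrays. Without the 4 arrays, Slc25a37 differed by 0.40 (limma adjusted p = 0.299; an exclusion chosen after the values were seen). Leaving them out gave 4 members lower (Slc25a11, Slc25a13, Slc25a33 and Slc25a34) and 1 higher (Slc25a24), against 3.21% and 7.82% of all genes.

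**Figure D4:**
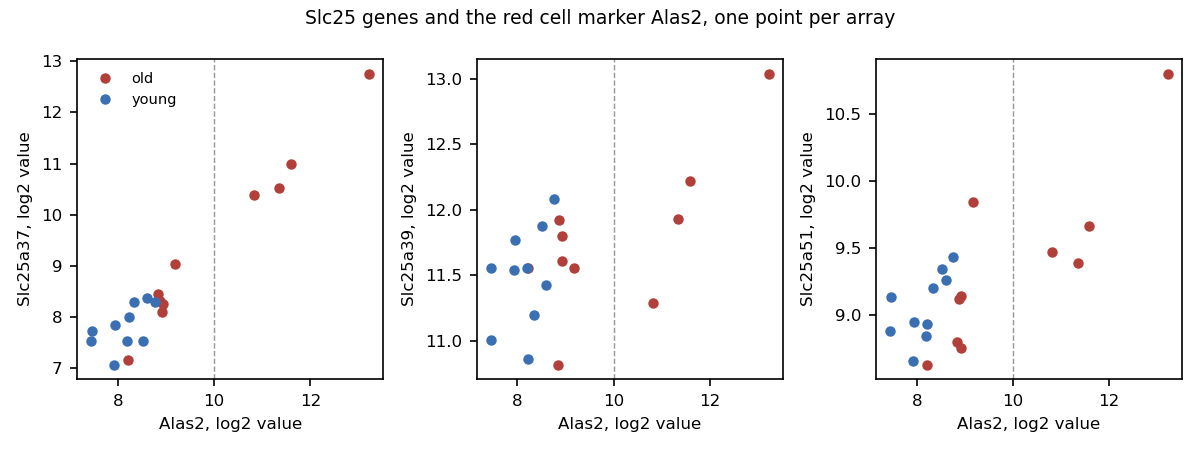
Log2 values of Slc25a37, Slc25a39 and Slc25a51 against Alas2, 1 point per array, with the dashed line at an Alas2 value of 10. The 4 old arrays beyond it hold the 4 highest Slc25a37 values, and old replicate 9 has the highest value of all 3 carriers.

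Slc25a28, the mitoferrin of other tissues, was 7.07 ± 0.38 in old and 7.24 ± 0.34 in young (SD over 10 arrays) and was not called (-0.17, adjusted p = 0.487). The changes of Slc25a37 and Slc25a28 differed by 1.74 ± 0.61 (permutation adjusted p = 0.01), and by 0.55 without the 4 arrays with high Alas2 (0.237). Slc25a38, which brings in glycine for haem synthesis, read 3.74, 4.25 and 5.32 in old arrays and 4.39, 4.96 and 5.82 in young. It fell by 0.73 ± 0.20 (adjusted p = 0.0129), and 6 of 10 old arrays were below every young array and 2 old arrays under 4, close to where undetected genes lie. It was called with the atrial index (-1.02, 0.0222) and was not called without the 4 arrays with high Alas2 (-0.59, 0.118).

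Slc25a39 and Slc25a40 carry glutathione. Slc25a39 was 11.78 ± 0.59 in old and 11.49 ± 0.38 in young (SD over 10 arrays), a difference of 0.29 (adjusted p = 0.36) that was 0.15 without old replicate 9, its highest array, and -0.06 with the atrial index. Slc25a40 was 5.90 ± 0.14 in old and 5.72 ± 0.24 in young, a difference of 0.18 (0.197). The changes of the pair, Slc25a40 minus Slc25a39, differed by -0.11 ± 0.27 (permutation adjusted p = 0.7).

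Of the carriers related to the uncoupling proteins, Slc25a30 read 4.28, 5.69 and 7.08 in old arrays and 3.36, 5.25 and 6.76 in young. The difference was 0.60 ± 0.40 (adjusted p = 0.318). Within the 5 array sets, old exceeded young by 0.39 to 0.89, and the gene was called with the set as a block. Slc25a27 (4.12 in old and 4.32 in young), above 4 in 4 old and 6 young arrays, differed by -0.20 and was not called, and Slc25a14 never exceeded 4. Slc25a44, a carrier of branched-chain amino acids, differed by 0.16 (adjusted p = 0.761), and Slc25a46, a protein of the outer membrane, by 0.06 (0.806).

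The 13 members that did not pass the filter were at or near undetected. Of these, 9 never exceeded 4 (Slc25a2, Slc25a14, Slc25a18, Slc25a31, Slc25a41, Slc25a47, Slc25a48, Slc25a53 and Slc25a54). The other 4 did so in some arrays: Slc25a1, the citrate carrier, in 7 old and 1 young array (medians 4.12 in old and 3.77 in young), Slc25a10, the dicarboxylate carrier, in 6, Slc25a25 in 4 and Slc25a45 in 2. The highest value among the 13 was 7.33, for Slc25a1 in old replicate 8, against at most 4.28 for that gene in young. That array also held the highest value of the fat hormone Adipoq, 12.02. The other old arrays read 2.30 to 9.15, and young arrays at most 2.37. Old replicate 9, with Adipoq at 9.15, had Slc25a1 at 4.5. Summed adipocyte marker signal was 804.0 to 38213.0 in old and 721.8 to 1105.0 in young, and its part in Slc25a1 was not tested. Slc25a21 and Slc25a43 had no probe set under those symbols and were not analysed here, nor was 1 probe set assigned to Slc25a37 together with another gene.

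Members of the family that go by other symbols gave 1 fall among 3 tested, against 7.49% of all genes. Ucp3, the uncoupling protein of muscle, was 4.67 ± 0.21 in old and 5.09 ± 0.34 in young (SD over 10 arrays; -0.42, adjusted p = 0.0239). Ucp3 was not called over the mean of its passing probe sets (-0.37, 0.14), with the atrial index (-0.38, 0.233), with index and set (-0.39, 0.215), without the Myl7 arrays (-0.36, 0.373) or without the Alas2 arrays (-0.28, 0.228). Mtch1 and Mtch2, outer-membrane relatives, differed by 0.04 and -0.14. Ucp1, the uncoupling protein of brown fat, was at 12.45 in old replicate 8 and 8.04 in old replicate 9, at most 4.20 in the other old arrays and at most 2.39 in young. Mitochondrial transporters outside the family, among them the calcium uniporter, the pyruvate carrier, the porins and the sideroflexins, gave 2 calls among 18 tested, both higher, a share close to the 11.2% of all genes called higher. They were Sfxn1, a serine carrier, at 6.90 ± 0.61 in old and 6.23 ± 0.25 in young (SD over 10 arrays; 0.66, adjusted p = 0.0204), and Sfxn3 (0.22, 0.046). Sfxn1 was not called with the atrial index (0.54, adjusted p = 0.265), with index and set (0.43, 0.27) or without the old arrays with high Myl7 (0.40, 0.247). The Sfxn3 call was lost under quantile normalization (0.12, 0.358), median centring (0.15, 0.228), trend and robust variance (0.0658), both fits with the atrial index and both fits without the Myl7 or Alas2 arrays. It also held only when the array dropped was old replicate 5, 7, 8 or 10 or young replicate 14. The porins Vdac1, Vdac2 and Vdac3 differed by -0.11, 0.01 and -0.08, none called.

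**Figure D5:**
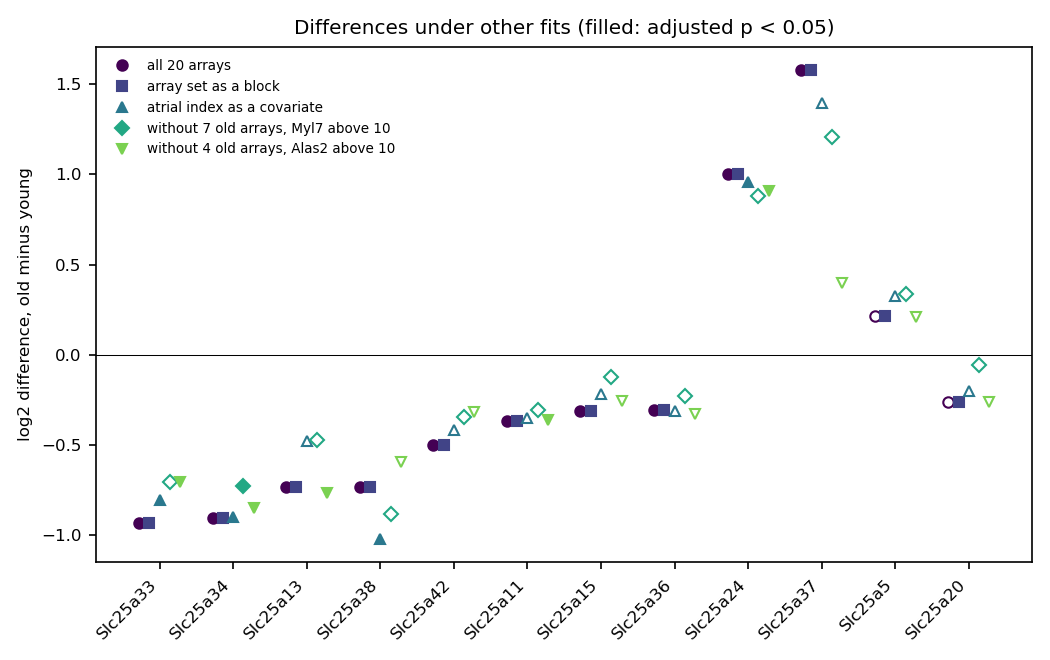
Log2 difference, old minus young, of the 10 called members, Slc25a5 and Slc25a20 under 5 fits; filled symbols have an adjusted p under 0.05. All symbols of a gene stay on the same side of 0, Slc25a34 is filled throughout, and Slc25a37 lies at 0.40 without the 4 old arrays with high Alas2 and at 1.58 with all arrays.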

How the data were processed

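RNA of 20 hearts was measured on Affymetrix MOE430 2.0 arrays. Groups came from the titles (old 1 to 10, young 11 to 20) and ages from the protocols; the design text calls both ranges young, read as a slip. The deposited table holds 1 log2 value per probe set and array, made by the authors with GCRMA per the submitters' processing notes; the version and log base are not stated there, and log2 was read from the values (0.98 to 16.01). GCRMA puts undetected transcripts near a common low value. The table had 45101 probe sets, 64 of them controls; 34945 had 1 gene in the platform annotation, 932 had several and 9160 were unnamed here. No arrays held identical values.

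Probe sets with 1 gene and a log2 value above 4 in at least 10 arrays were kept, and the passing probe set with the highest mean stood for its gene (9275 genes). The age groups were fitted in limma (3.58.1, R 4.3.3) without covariates, and p-values were adjusted by Benjamini-Hochberg across the 9275 genes; adjusted p-values are from this fit unless another is named, and differences are log2, old minus young. The fit was tested on simulated data. Paralog pairs were compared by two-sided permutation tests over arrays (100000 resamples), adjusted over 6 pairs; 2 other pairs lacked a measured gene. With the atrial index residuals were permuted (Freedman-Lane), and within sets (7776 arrangements) and without the arrays with high Myl7 (286) the tests were exact. For the atrial index, the linear values of Myl7 and Sln were each scaled to their highest array and averaged. Array sets came from clustering residuals (cluster 2.1.8.1). Other settings were quantile normalization, median centring, no filter, a filter at 6, the mean of passing probe sets, each probe set on its own, trend and robust variance, the set as a block, the atrial index, and leaving out arrays. Named were all called members, the fixed carriers and pairs, and called partners. Other members, Slc25a1 and Ucp1 among them, were named after their values were seen.

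The family, the lists and the alternatives were chosen with earlier results of these data known. P-values measure the spread between these arrays, 1 per mouse. Promoters are from RefSeq (GRCm38.p6), which held windows for 34 of the 44 members. The number of arrays limits the precision.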

Additional observations from a re-analysis of the deposited data

Results flagged for a closer look

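In 6 of the 62 groups of 10 arrays tested (31 genes, old and young), 1 array lay far from the others by Dixon's criterion, where chance gives about 1 in 20. In old arrays, Slc25a27 was high in replicate 8 (5.11, next 4.34), Slc25a32 was high in replicate 8 (5.65, next 5.40), Slc25a40 was high in replicate 6 (6.26, next 5.94) and Slc25a42 was low in replicate 5 (5.27, next 6.22). In young arrays, Slc25a4 was high in replicate 19 (15.53, next 15.47) and Slc25a24 was low in replicate 12 (5.21, next 6.04). Of the genes called, Slc25a24 and Slc25a42 remained called without the array named here.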

How the results depend on the processing

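The 8 lower members became 3 with the atrial index, 4 with the index and the array set, 1 without the 7 old arrays with Myl7 above 10 and 4 without the 4 old arrays with Alas2 above 10, an exclusion chosen after seeing the data. The 2 higher members became 4 with the array set as a block, 3 with index and set, 1 with the index, 0 without the arrays with high Myl7 and 1 without those with high Alas2. Leaving out 1 array gave 5 to 9 lower and 1 to 3 higher members, the fewest lower without young replicates 16 or 19, and the fewest higher without old replicates 1, 4 or 5 or young replicate 14. Over all genes, 1732 calls became 4345 with no filter, 3344 with the set as a block, 347 with the index, 579 with index and set, 272 without the arrays with high Myl7, 1023 without those with high Alas2 and 1391 to 1830 without 1 array. The cause of these shifts was not tested; the fits without arrays also hold fewer samples.

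Slc25a5 minus Slc25a4 was 0.15 over the mean of probe sets (permutation adjusted p = 0.0926). Slc25a37 minus Slc25a28 was 1.74 with the index (0.0594), 1.40 with index and set (0.0854) and 0.55 without the arrays with high Alas2 (0.237). Slc25a33 minus Slc25a36 was -0.50 with the index (0.0594), -0.46 with index and set (0.0909), -0.48 without the arrays with high Myl7 (0.105) and -0.38 without those with high Alas2 (0.0777). Slc25a40 minus Slc25a39, never called, turned to 0.18, 0.39 and 0.15 with the index, without the Myl7 arrays and without the Alas2 arrays, and ran from -0.23 to 0.039 without 1 array. Slc25a13 minus Slc25a12 and Slc25a24 minus Slc25a23 were called in all fits, and every pair but Slc25a40 minus Slc25a39 was called whichever 1 array was left out.

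Estimates that changed sign were of genes never called. Slc25a3 was 0.019 without the Myl7 arrays. Slc25a4 was 0.019 under quantile normalization, 0.031 with the index, 0.019 with index and set, and 0.05 without the Myl7 arrays. Slc25a23 was -0.11, -0.13 and -0.20 with the index, with index and set, and without the Myl7 arrays. Slc25a29 was 0.044 with index and set and ran from -0.08 to 0.088 without 1 array. Slc25a39 was -0.063 with the index and -0.25 without the Myl7 arrays, and Slc25a51 was -0.015 without the Alas2 arrays. No paired analysis was possible because the groups share no replicate number.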
